A study of Mus musculus and Homo sapiens with 12 samples.

Results

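The mouse line KPC LM2 was compared with KPC, the pancreatic ductal carcinoma line it was derived from, over every gene of 1 comparison table. All 23201 rows of that table were used, out of 41391 gene rows in the 2 tables of the series. Each group had 3 biological replicates, 6 libraries in all. KPC LM2 had gone through 2 generations of selection for metastasis to the liver; KPC is the parental line, and the labels give the genotype of both as WT. For both groups, tumours in the liver were collected on day 21, after 500000 cells had been placed in the spleen on day 1. The labels do not name the driver mutations, the host strain, or whether LM2 is 1 clone or a pool of cells. The protocol names tumours and the sample titles name cells, so the labels do not settle how much host tissue was sequenced. No label says whether replicates came from separate animals, so the p-values measure only the spread between these libraries.

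Metastasis to the liver requires carcinoma cells to leave the primary site, survive in the portal blood, attach in the liver and grow there. Serial passage through an organ enriches for cells that do this well. Genes often discussed in this setting encode the extracellular matrix and its receptors, the junctions that hold epithelial cells together, growth factor receptors, and the interferon and antigen presentation genes that immune cells respond to.

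No library has a value of its own in the columns used, so no range over samples can be given. Each gene has a mean normalised count over both groups (its level), a log2 fold change between the groups, the standard error (SE) of that change and a Wald p-value. Values after ± are listed SEs. A gene is called where its Benjamini-Hochberg adjusted p from the Wald test of DESeq2 is under 0.05. The depth of each library is unknown; the levels sum to 9106250 over all genes. Hepatocyte marker genes summed to 126 of this, beside 28158 for the epithelial keratin gene Krt18 alone. Macrophage and Kupffer cell markers summed to 1180, of which the mannose receptor gene Mrc1 held 1073. The share of host tissue was not tested.

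The table does not say which group is the numerator. The direction was read from Nptx1, which encodes neuronal pentraxin 1, a secreted protein of synapses for which the study is known and which it reports as raised in metastatic derivatives. The authors' deposited table listed Nptx1 at 2.86 ± 0.34 (log2 fold change, n = 3 and 3 libraries), with an adjusted p of 1.69e-14 from the Wald test of DESeq2 and a level of 259. Positive values are therefore read as higher in KPC LM2, and this reading rests on that gene alone. Nptx1 is no result here for the same reason. The adhesion protein genes Amigo1, at -0.82 ± 0.33, and Amigo3, at 0.92 ± 0.45, were not called in the authors' deposited table. Amigo2 stood at 0.06 ± 0.89 at a level of only 17.2 in the authors' deposited table.

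Of 20050 genes with an adjusted p, 2079 were called, which is 10.4%: 1157 positive (5.77%) and 922 negative (4.60%). The sign depended on the level. Among the 9767 tested genes at a level of 64 or more, 1237 were called (12.7%), 1031 positive (10.6%) and 206 negative (2.11%). Among the 10283 tested genes under 64, the counts were 126 positive and 716 negative. The median log2 fold change of the genes at 64 or more was 0.22, and 73.5% of them had a positive value. Under a level of 16 the median was -1.43, and 412 of the 421 calls were negative. The median SE was 0.99 under 16 and 0.21 at 1024 or more. For these reasons genes at 64 or more carry the account below, and lower genes are named with their level.

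**Figure D1:**
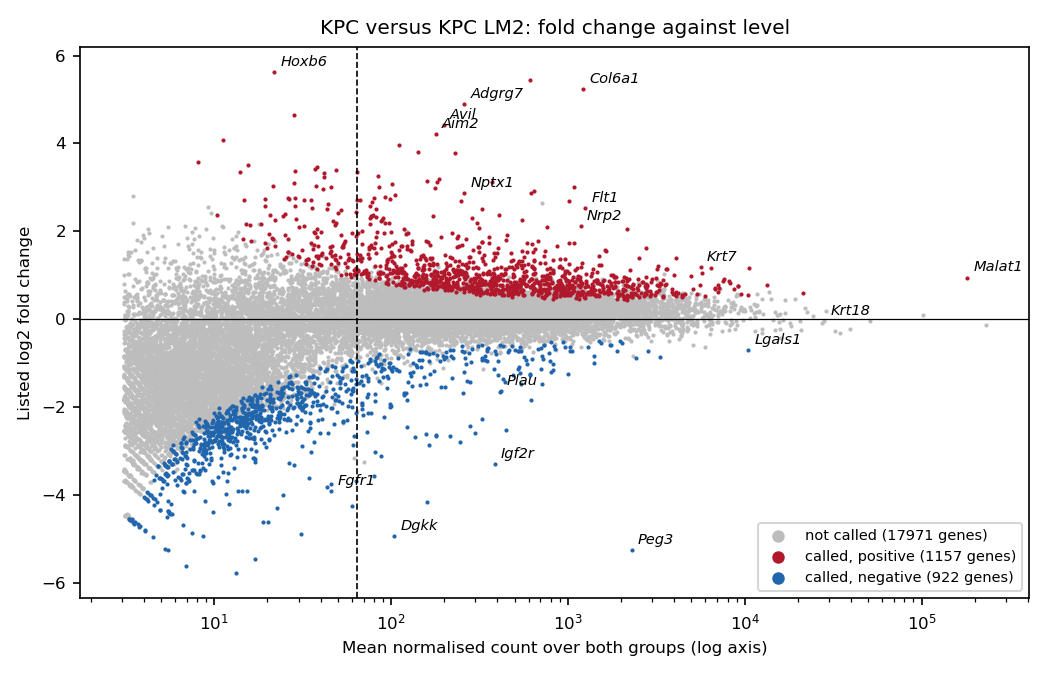
Listed log2 fold change (vertical axis) against the mean normalised count over both groups (log horizontal axis) for the 20050 tested genes; red and blue points are positive and negative calls and the dashed line marks a level of 64. Positive calls lie mostly to the right of that line and negative calls mostly to the left, where 80.5% of the genes have a negative value.

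Fold changes are relative to the authors' scaling, and this scaling decides the balance of the signs. When 0.22 was subtracted from every gene, so that the median gene at 64 or more stood at 0, 902 genes at 64 or more were called, 427 positive and 475 negative. Of the 1237 called as listed, 633 kept their call and sign. Amigo1, not called as listed, was called negative after recentring, and also relative to the median of its own chromosome. Counts after this recentring are given beside most gene groups, in the same order as the counts before it. Each count of called members is to be read beside all tested genes. Of these, 5.77% were positive and 4.60% negative as listed, and 10.6% and 2.11% at 64 or more. After recentring, 506 of all 20050 tested genes were called positive and 1643 negative. For genes under 64, whose median was -1.13 as listed, recentring moved that median further from 0. Negative counts after recentring in lists of mostly low genes are to be read with this. A further check subtracted the trend of the fold change with level, a running median over genes ordered by level, which left 765 genes called at 64 or more, 368 positive and 397 negative. Of the genes named below with a level under 64, that check ended the negative calls of Col1a1, Col6a4, Col6a6, Muc20, Meg3, Aldh1a2, Aldh1a7, C1s1, Cmpk2, Oas2 and Hoxb9. At 64 or more it ended the positive calls of Col5a1, Adam17, Plxna2, Adgre5, Fzd1 and Hes1, beyond those that recentring ended.

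The largest positive changes at 64 or more belonged to the collagen VI genes, and the largest negative changes to an imprinted zinc finger gene and a lipid kinase gene. The authors' deposited table listed Col6a1 at 5.24 ± 0.27 and its neighbour Col6a2 at 5.44 ± 0.37. Their chains join with a further chain, encoded by Col6a3, into the beaded filaments of the matrix. If the level is the plain mean of 3 and 3 libraries, Col6a1 stood at about 2387 normalised counts in one group and 62.9 in the other, a 37.9-fold difference. The third chain did not follow them: Col6a3 was listed at 0.05 ± 0.37 in the authors' deposited table, not called, at a level of 46.0. Of the 10 genes in the collagen VI group, 2 were positive and 3 negative, as listed and after recentring, all 3 negative ones at levels under 64. They were the alternative chain genes Col6a4 (-2.28 ± 0.68) and Col6a6 (-2.41 ± 0.74) and the adhesion receptor gene Mcam (-2.05 ± 0.51), in the authors' deposited table. Antxr2, a receptor for collagen VI, was at 0.78 ± 0.29 in the authors' deposited table, with an adjusted p of 0.0592 from the Wald test of DESeq2.

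After collagen VI came genes of varied function. The authors' deposited table listed Adgrg7, an adhesion G protein-coupled receptor gene, at 4.90 ± 0.76, with an SE over 3 times that of other genes of its level. Avil, the actin-severing protein advillin, stood at 4.42 ± 0.36 in the authors' deposited table, and its relative Scin, scinderin, at 1.97 ± 0.43. Both kept their calls after recentring; the other 5 of the 7 genes of that family were not called. Gabrp, a subunit of the GABA-A receptor, was at 3.98 ± 0.50, and the glutamate transporter gene Slc1a2 at 2.86 ± 0.31 in the authors' deposited table. The glycerol phosphate dehydrogenase gene Gpd1 (3.79 ± 0.39), the apolipoprotein B receptor gene Apobr (3.15 ± 0.33), the protease inhibitor gene Serpinb1a (3.12 ± 0.38) and the sodium-proton exchanger gene Slc9a2 (3.12 ± 0.34) complete this range in the authors' deposited table, along with retinoid and DNA sensor genes described below.

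**Figure D2:**
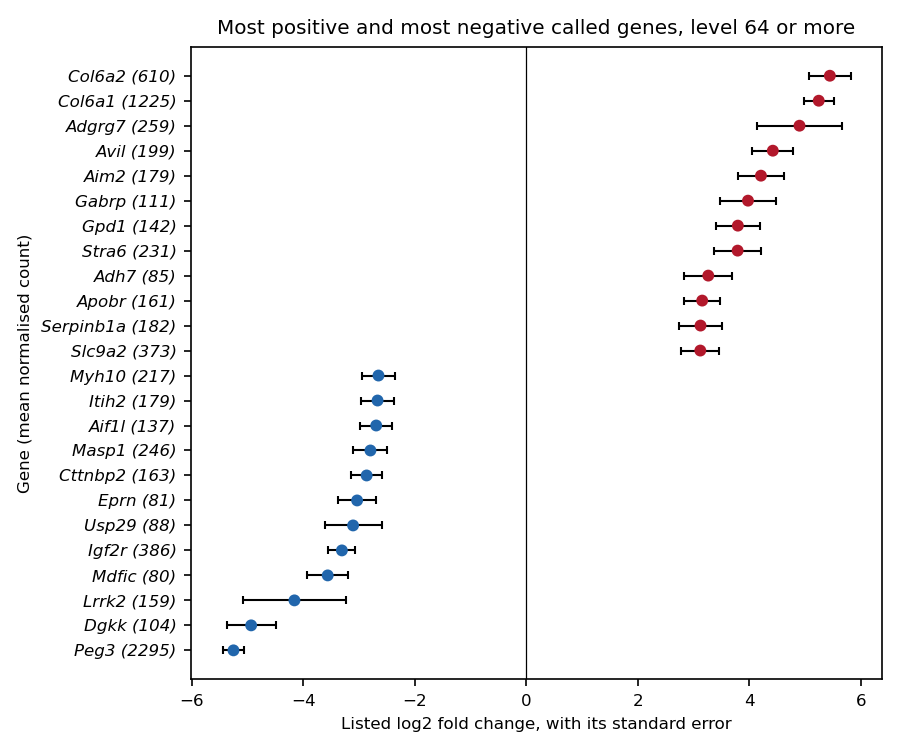
Listed log2 fold change with its SE (horizontal axis) for the 12 most positive (red) and 12 most negative (blue) called genes at a level of 64 or more, with each level in parentheses. Errors are widest for Adgrg7 and Lrrk2 and narrowest for Peg3.

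Peg3 encodes a zinc finger protein expressed from the paternal allele only. The authors' deposited table listed it at -5.25 ± 0.20 with a level of 2295, and its adjusted p of 7.65e-153 in the Wald test of DESeq2 was the smallest of all genes. The implied group means were about 4472 and 117 normalised counts. Usp29, a paternally expressed ubiquitin protease gene, starts beside Peg3 on the opposite strand and stood at -3.11 ± 0.51 in the authors' deposited table. The bases between the first exons of these genes are shown because both members of this head-to-head pair were lower together. They span chr7:6730432-6730577 of GRCm38.p6, plus strand, which is another build than the authors' mm39, with sequence from RefSeq and first exons from RefSeq and GENCODE M21. Capitals mark CCAAT, searched on both strands; 24.0% of 32851 RefSeq promoter stretches of the same length hold it.
Peg3-Usp29: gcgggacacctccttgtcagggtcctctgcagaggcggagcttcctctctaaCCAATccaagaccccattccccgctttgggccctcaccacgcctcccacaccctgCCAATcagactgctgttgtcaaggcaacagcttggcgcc

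Other imprinted genes followed the same sign or were not called. Igf2r, the maternally expressed receptor that carries insulin-like growth factor 2 to the lysosome, stood at -3.31 ± 0.24 in the authors' deposited table, or 9.90-fold lower. Airn, the paternally expressed antisense transcript that overlaps it, was at 0.07 ± 0.28 and not called in the authors' deposited table. Whether counting used the strand is not given in the sources used here, so reads of the overlapping part may be split between them. Of 26 tested imprinted genes, 5 were negative and 0 positive by the Wald test of DESeq2, and 6 and 0 after recentring. With the trend with level subtracted, 5 were negative and 1 positive. The list's median was -1.40 against -0.08 for all tested genes, and 19 of the 26 lay under 64. Negative calls made up 4.60% of all tested genes and positive ones 5.77%. The other calls were Magel2 (-4.29 ± 0.76, level 22.7) and the maternally expressed non-coding RNA gene Meg3 (-1.91 ± 0.68, level 29.6), in the authors' deposited table. Gnas, the most abundant imprinted gene named here, was at -0.28 ± 0.17 in the authors' deposited table, not called as listed but called after recentring.

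The remaining large negative values included signalling and cytoskeletal genes. Dgkk, a diacylglycerol kinase, stood at -4.94 ± 0.44 in the authors' deposited table, with implied group means of about 202 and 6.60 normalised counts. The kinase gene Lrrk2 was at -4.16 ± 0.93 with an SE over 3 times that of its level, and the transcriptional regulator gene Mdfic at -3.56 ± 0.36, in the authors' deposited table. Cttnbp2, a cortactin-binding protein (-2.86 ± 0.28), Aif1l (-2.69 ± 0.29) and the non-muscle myosin heavy chain gene Myh10 (-2.65 ± 0.30) act on actin or its regulators and were also negative in the authors' deposited table.

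Genes of complement and of the inter-alpha-trypsin inhibitor family, a list added after values were seen, had 5 negative and 0 positive calls among 16 tested, 6 and 0 after recentring. As listed, 4.60% of all tested genes were negative, and 2.11% at 64 or more. Under 64, where 11 of the 16 lay, the median of all tested genes was -1.13. Masp1 and Itih2 are among the 12 most negative called genes at 64 or more, so these counts are no test. The authors' deposited table listed C3, the central complement component, at -2.64 ± 0.33 and Masp1, a protease of the lectin pathway, at -2.80 ± 0.30. Itih2, a heavy chain of the inhibitor that binds hyaluronan, was at -2.67 ± 0.30 in the authors' deposited table. C1s1 (level 26.4) and Cd59a (level 21.9) were lower at -1.45 ± 0.49 and -2.63 ± 0.56 in the authors' deposited table. C3, Masp1 and Itih2 are also made by hepatocytes. The hepatocyte markers themselves had 12 tested genes and 0 called by the Wald test of DESeq2, 5 at an unadjusted p under 0.05, at levels of 3.51 to 26.7. Of these 12 markers, 11 had negative values. Their median was -1.53, beside -1.52 for the complement and inhibitor list and -1.13 for all tested genes under 64. The part of hepatocytes in these values was not tested.

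Laminin 332, the laminin that anchors epithelium to its basement membrane through integrin alpha-6 beta-4, was higher in part. The authors' deposited table listed its beta-3 chain gene Lamb3 at 1.55 ± 0.22 (adjusted p 7.61e-10, Wald test of DESeq2). The integrin beta-4 gene Itgb4 stood at 1.33 ± 0.20 in the authors' deposited table. Lama3, the alpha chain gene of the same laminin, was at 0.27 ± 0.24 and not called in the authors' deposited table. Among 17 laminin and basement membrane genes, 4 were positive and 3 negative, and 2 and 3 after recentring, which ended the calls of Lamb2 (0.74 ± 0.21) and Lamc1 (0.62 ± 0.19). Sparc, a matrix-binding glycoprotein gene, was the negative call at 64 or more, at -0.85 ± 0.19 in the authors' deposited table. The fibronectin gene Fn1, at a level of 15963, was at -0.42 ± 0.27 and not called in the authors' deposited table. Of 17 integrin genes, Itgb4 was the only positive call; Itgb3 was lower at -0.78 ± 0.21 in the authors' deposited table, and a second negative call lay under 64. After recentring 1 integrin gene was positive and 3 were negative.

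Of 27 tested matrix proteases and inhibitors, 3 were positive and 10 negative, 5 of the latter at levels under 64, and 2 and 10 after recentring. At 64 or more the list's median was 0.11 over 17 genes. All tested genes at that level were 10.6% positive and 2.11% negative. With the trend with level subtracted, 1 was positive and 6 were negative. Plau, the urokinase that activates plasminogen, stood at -1.65 ± 0.19 in the authors' deposited table, 3.13-fold lower, while its receptor gene Plaur was at 0.58 ± 0.18, a call lost after recentring. Adamts9, which cleaves proteoglycans, was at -2.52 ± 0.32 and the membrane protease gene Adam12 at -1.54 ± 0.22 in the authors' deposited table. The matriptase gene St14 (-2.05 ± 0.33) and the inhibitor gene Timp3 (-1.03 ± 0.18) were lower too in the authors' deposited table. The sheddase genes Adam10 (0.86 ± 0.20) and Adam17 (0.91 ± 0.23) were the other positive calls. Relative to the median of each gene's own chromosome the list had 0 positive calls.
Among 23 other collagens, 3 were positive and 2 negative, and 2 and 3 after recentring. Col27a1 (1.00 ± 0.24) and Col5a1 (1.21 ± 0.34), both fibrillar collagens, were positive and Col12a1 (-1.73 ± 0.51) negative in the authors' deposited table. Fibroblasts and stellate cells also make matrix and its proteases. All 14 of their tested markers had negative values, with a median of -1.56 beside -1.13 for all tested genes under 64, at levels of 4.27 to 69.8 that summed to 271. Of these, 2 were called, the collagen I gene Col1a1 (-1.84 ± 0.63, level 19.9) and the reelin gene Reln (-1.50 ± 0.44, level 69.8) in the authors' deposited table, and 4 after recentring. Their part in the values of the matrix and protease genes was not tested.

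Epithelial genes were abundant in these libraries, and single junction and keratin genes changed in both directions. The simple epithelial keratin genes Krt18 and Krt8 had levels of 28158 and 10742 and were not called, Krt8 at 0.02 ± 0.16 in the authors' deposited table. Cdh1, which encodes E-cadherin, was at 0.27 ± 0.23 in the authors' deposited table, also not called. Krt7, a duct keratin gene, stood at 1.18 ± 0.18 and Krt20, a keratin of gut and of some duct carcinomas, at 2.7 ± 0.65 in the authors' deposited table, while Krt80 was at -0.98 ± 0.20. Of 29 junction genes, 6 were positive and 2 negative, and 5 and 4 after recentring. The tight junction scaffold gene Tjp3 (2.33 ± 0.43), the claudin gene Cldn2 (0.93 ± 0.19) and the desmosomal cadherin genes Dsg2 (1.27 ± 0.21) and Dsc2 (1.68 ± 0.34) were positive in the authors' deposited table. Cldn4 (-1.99 ± 0.28) and the N-cadherin gene Cdh2 (-1.47 ± 0.34) were negative in the authors' deposited table. Epcam, an epithelial adhesion gene of the ductal marker list, was also lower at -1.14 ± 0.28 in the authors' deposited table.

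Factors that oppose and promote the mesenchymal state were both among the positive calls. The epithelial ETS factor genes Ehf and Elf3 stood at 2.05 ± 0.31 and 1.09 ± 0.27 in the authors' deposited table, and Twist1, a driver of mesenchymal change, at 2.23 ± 0.39. Of 17 genes on the list, 4 were positive and 1 negative, and 3 and 1 after recentring, which ended the call of Klf4 (0.86 ± 0.24). The negative call was Grhl2, an epithelial factor gene, at -1.58 ± 0.35 and a level of 56.9 in the authors' deposited table. Vim, the mesenchymal filament gene, was at -0.09 ± 0.22 at a level of 27480 and not called in the authors' deposited table. S100a4, a calcium-binding protein gene linked to motility, stood at 1.62 ± 0.25 in the authors' deposited table. Pdx1 (0.90 ± 0.19) and Onecut2 (1.06 ± 0.33), transcription factor genes of pancreas and foregut, were positive in the authors' deposited table; the call of Onecut2 ended after recentring and that of Pdx1 relative to its chromosome.

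Of 19 tested mucin and secretory genes, 5 were negative and 1 positive, and 5 and 1 after recentring. The trefoil factor gene Tff1 (-2.14 ± 0.38) and the membrane mucin gene Muc16 (-1.85 ± 0.51) were the 2 negative calls at 64 or more in the authors' deposited table. Tff3 (-4.61 ± 0.76, level 20.1), Muc2 (-1.91 ± 0.49, level 52.9) and Muc20 (-2.53 ± 0.72, level 12.5) lay under 64 in the authors' deposited table. Agr2, a disulfide isomerase that folds mucins, was positive at 3.02 ± 0.79 and a level of 21.6 in the authors' deposited table.

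Genes of retinoid uptake, synthesis and response, another list added after values were seen, had 5 positive and 5 negative calls among 23 tested, and 4 and 5 after recentring, with a list median of -0.34. The authors' deposited table listed Stra6, the receptor for retinol-binding protein, at 3.79 ± 0.42. Adh7, an alcohol dehydrogenase, was at 3.26 ± 0.43 and Aldh1a3, which makes retinoic acid, at 3.00 ± 0.29 in the authors' deposited table. Implied group means of Aldh1a3 were about 1930 and 241 normalised counts. The related dehydrogenase genes Aldh1a1 (-0.70 ± 0.22), Aldh1a2 (-2.61 ± 0.65, level 15.8) and Aldh1a7 (-1.52 ± 0.45, level 26.0) were negative in the authors' deposited table. The receptor genes Rarg (-0.68 ± 0.23) and Rxra (-0.67 ± 0.19) were negative in the authors' deposited table.

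Receptors and ligands of growth factors moved singly, not as whole families. Flt1, a receptor for vascular endothelial growth factor, stood at 2.53 ± 0.22 and its co-receptor Nrp2 at 2.11 ± 0.19 in the authors' deposited table, with adjusted p of 5.97e-28 and 1.86e-26 from the Wald test of DESeq2. Flt1 is best known in endothelium, whose list of 14 marker genes had 0 positive calls and 1 negative. That call was the receptor gene Flt4, at -1.69 ± 0.24 in the authors' deposited table. Of the 14 markers, 13 lay under 64 and 13 had negative values. Their median was -1.23, beside -1.13 for all tested genes under 64. The part of endothelium in the values of Flt1 and Nrp2 was not tested. The ligand gene Vegfa was at -0.09 ± 0.20 and not called in the authors' deposited table. Angptl2 (1.75 ± 0.35) was positive and Angptl4 (-1.25 ± 0.21) negative in the authors' deposited table, which made 3 positive and 2 negative of 14, and 3 and 3 after recentring.
The receptor gene Erbb3 stood at 1.86 ± 0.42 in the authors' deposited table, while its ligand gene Nrg1 was at -1.66 ± 0.25. Other ligand genes of that family, Btc (1.5 ± 0.40) and Ereg (1.04 ± 0.34), were positive in the authors' deposited table; recentring ended the call of Ereg. Egfr was at -0.07 ± 0.30 and not called in the authors' deposited table. The receptor gene of macrophage-stimulating protein, Mst1r, stood at 2.59 ± 0.52 and the ligand gene Pdgfb at -1.27 ± 0.23 in the authors' deposited table. Among 14 tested fibroblast growth factor genes, 0 were positive and 3 negative, all under 64, and 0 and 5 after recentring. Fgfr1 (-3.92 ± 0.47, level 45.8) and Fgfr2 (-2.39 ± 0.47, level 47.7) are its main receptors, and Fgfbp1 (-2.26 ± 0.50, level 24.9) is a carrier of the ligands, in the authors' deposited table.

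Axon guidance genes, which steer growing nerve fibres and also act in epithelial migration, had 11 positive and 4 negative calls among 48 tested, beside 5.77% and 4.60% of all tested genes, and 7 and 8 after recentring. All 11 positive calls were among the 34 members at 64 or more, where 10.6% of all tested genes were called positive. The list's median was 0.08, and 0.33 over the members at 64 or more, beside 0.22 for all tested genes at 64 or more. Besides Nrp2, the semaphorin genes Sema4a (1.66 ± 0.28), Sema3b (1.31 ± 0.28) and Sema4b (0.93 ± 0.22) were positive in the authors' deposited table. Slit2, a repulsive ligand, was at 1.05 ± 0.23 and the receptor gene Plxna2 at 0.78 ± 0.18 in the authors' deposited table. Sema3a (-0.94 ± 0.30), a ligand of the neuropilins, and the ephrin receptor gene Epha4 (-0.60 ± 0.16) were negative in the authors' deposited table. Of 25 adhesion G protein-coupled receptor genes, 7 were positive and 3 negative, and 4 and 3 after recentring; with the trend with level subtracted the counts were 3 and 0. Celsr1, a planar polarity cadherin (1.73 ± 0.27), Adgrf5 (1.06 ± 0.26) and Adgre5 (0.93 ± 0.24) were positive in the authors' deposited table.

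**Figure D3:**
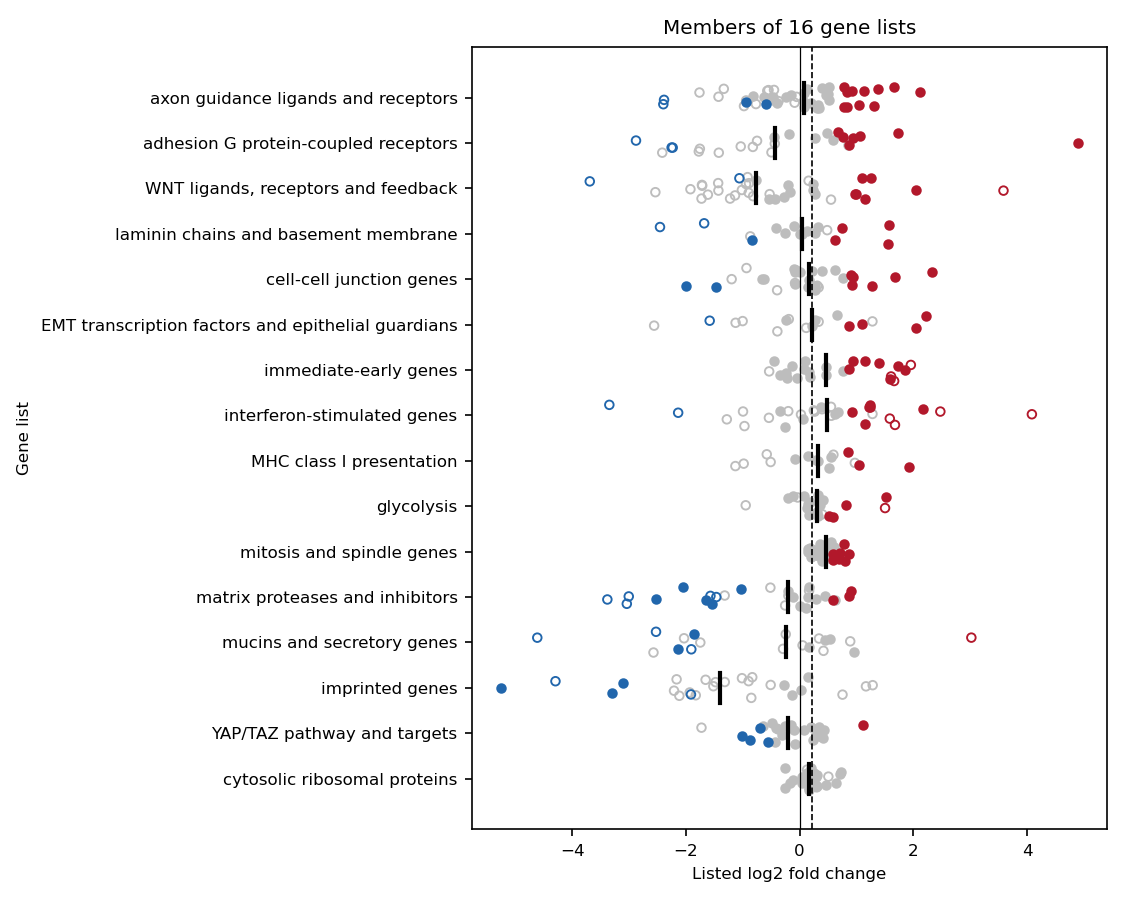
Listed log2 fold change (horizontal axis) of each tested member of 16 gene lists; filled points have a level of 64 or more and open points less, red and blue are positive and negative calls, and grey is not called. Black bars are list medians and the dashed line is the median of all genes at 64 or more, 0.22; the ribosomal list has 0 calls and the imprinted list has only negative ones.

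Of 37 tested WNT genes, 7 were positive and 2 negative, and 6 and 5 after recentring. At 64 or more 6 of 15 were positive, beside 10.6% of all tested genes. The other 22 lay under 64. Rnf43, a ligase that removes WNT receptors from the surface, stood at 2.05 ± 0.30 in the authors' deposited table. The receptor genes Fzd6 (1.26 ± 0.21), Fzd1 (1.09 ± 0.29) and Lgr4 (1.14 ± 0.34) were positive in the authors' deposited table, as were the ligand gene Wnt7b (0.99 ± 0.20) and the nuclear effector gene Tcf7 (0.97 ± 0.26). Recentring ended the call of Lgr4. Ctnnb1, which encodes beta-catenin, was at 0.77 ± 0.24 in the authors' deposited table, and its call also ended after recentring. Ror2, a receptor of the branch that does not use beta-catenin, was at -3.69 ± 0.81 and a level of 11.9 in the authors' deposited table. Of 24 genes of the YAP/TAZ pathway, which senses stretch and cell contact, 4 were negative and 1 positive, and 7 and 1 after recentring. At 64 or more 4 of 23 were negative, beside 2.11% of all tested genes. The target gene Ccn2 (-0.88 ± 0.17) and the factor genes Tead2 (-0.70 ± 0.19) and Tead3 (-1.02 ± 0.31) were negative in the authors' deposited table, and Nt5e (1.11 ± 0.28) was positive. Among 37 genes of the TGF-beta and BMP pathways, 4 were positive and 2 negative, but 1 and 3 after recentring. At 64 or more 4 of 29 were positive, near the 10.6% of all tested genes. The ligand gene Tgfb1 stood at 1.03 ± 0.22 and Bmp7 at -4.89 ± 0.64, at a level of 30.9, in the authors' deposited table.

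Among 24 tested genes that respond within minutes to growth factors or to stress, 10 were positive and 0 negative, beside 5.77% and 4.60% of all tested genes, and 5 and 1 after recentring. Of the 14 not called, 7 had negative values. At 64 or more, 7 of 20 were positive, beside 10.6% of all tested genes. Atf3 (1.86 ± 0.30), Egr1 (1.73 ± 0.27), Fos (1.60 ± 0.21) and Nr4a1 (1.40 ± 0.29) stood highest at 64 or more in the authors' deposited table. These genes are also raised by tissue handling, and the time from collection to lysis is not given in the sources used here; its part in the result was not tested. Bag3, a co-chaperone gene, stood at 0.97 ± 0.18 in the authors' deposited table and was the 1 call among 16 heat-shock genes, as listed and after recentring. Among 23 genes of the unfolded protein and integrated stress responses, 3 were positive and 3 negative, and 1 and 3 after recentring. Asns (-0.68 ± 0.24), Chac1 (-1.90 ± 0.45, level 31.5) and Trib3 (-1.75 ± 0.39, level 41.1) were the negative calls in the authors' deposited table. Ppp1r15a (0.91 ± 0.20), which lifts the block of translation in the stress response, was positive as the authors' deposited table gives it, and kept its call after recentring.

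Interferon-stimulated genes were higher in 10 and lower in 2 of 30 tested, and in 8 and 2 after recentring; at 64 or more the counts were 6 and 0 of 12. With the trend with level subtracted they were 9 and 0. Beside these stand 5.77% positive and 4.60% negative of all tested genes as listed, and 10.6% and 2.11% at 64 or more. Oasl1 (2.16 ± 0.38), Lgals3bp (1.22 ± 0.23) and Herc6 (1.23 ± 0.29) were positive in the authors' deposited table. Ifitm3, a membrane protein that blocks virus entry, was at 2.48 ± 0.42 and a level of 51.9, and Bst2, which tethers virus, at 1.68 ± 0.43 and a level of 36.8, in the authors' deposited table. The negative calls, Cmpk2 and Oas2, had levels under 16 in the authors' deposited table. Ifit1, a classical member, was at 0.26 ± 0.54 at a level of 18.0, and Isg15 at 1.28 ± 1.09 at a level of 4.46, both not called in the authors' deposited table. Interferon acts through a promoter element, GAAANNGAAA, searched here on both strands in the 250 bases before each RefSeq start. It was held by 2 of 8 positive, 8 of 15 uncalled and 0 of 1 negative genes of the list that have a promoter entry, and by 2.98% of all 32851 promoters. The stretches of Ifit1 and Isg15 are shown as classical carriers of the element that were not called, with the element in capitals in RefSeq sequence of GRCm38.p6. Ifit1 lies on the plus strand at chr19:34640770-34640813 and Isg15 on the minus strand at chr4:156200868-156200911.
Ifit1: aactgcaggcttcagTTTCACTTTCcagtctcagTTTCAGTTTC
Isg15: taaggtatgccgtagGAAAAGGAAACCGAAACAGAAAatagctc

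Antigen presentation and DNA sensing genes had positive calls only. Of 15 genes of the MHC class I pathway, 3 were positive, and 1 after recentring. At 64 or more 3 of 9 were positive, beside 10.6% of all tested genes. H2-K1, a classical class I heavy chain, stood at 1.92 ± 0.22 in the authors' deposited table, while H2-D1, another heavy chain, was at 0.55 ± 0.34 and not called. These heavy chain genes are close in sequence, so reads can be split between them. B2m, the shared light chain, was at 1.04 ± 0.30 in the authors' deposited table, a call lost after recentring. Of 17 inflammasome genes, 4 were positive, and 2 after recentring with 1 negative. At 64 or more 2 of 8 were positive as listed. Aim2, the sensor of DNA in the cytosol, stood at 4.21 ± 0.41, with implied group means of about 339 and 18.4 normalised counts, in the authors' deposited table. Casp1, the protease that the sensor activates, was at 3.46 ± 0.60 and a level of 38.2 in the authors' deposited table. Gsdmd, which forms the membrane pore, was at -0.14 ± 0.23 and not called in the authors' deposited table. Immune cells also express Aim2 and Casp1. The marker lists of T and NK cells, B cells and neutrophils summed to levels of 70.8, 57.7 and 35.6, with highest members at 14.5, 18.3 and 6.98. Of 10 tested macrophage markers, 0 were positive and 1 negative; Mrc1, the mannose receptor gene, had a level of 1073 and the other 9 lay under 64. Their part in these results was not tested. Among 24 cytokine genes, 3 were positive and 2 negative, and 2 and 3 after recentring. Cxcl16 (1.04 ± 0.23), Cxcl5 (1.15 ± 0.35) and Tnf (3.37 ± 0.68, level 28.6) were positive and Cxcl12 (-3.68 ± 0.54, level 63.3) was negative in the authors' deposited table; the call of Cxcl5 ended after recentring.

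All 27 mitosis genes, each at a level over 64, had positive values, with a list median of 0.46 beside 0.22 for all tested genes at 64 or more. Of these, 7 were called positive, beside 10.6% of all tested genes at 64 or more; after recentring 1 was called. Cenpf, a kinetochore protein gene, stood at 0.88 ± 0.19 in the authors' deposited table, and Mki67, at a level of 21467, at 0.59 ± 0.20, a call lost after recentring. Of 29 replication genes 1 was called, Mcm7 at 0.50 ± 0.16 in the authors' deposited table, and it too was lost after recentring, when 1 other replication gene was called negative. Of 26 cytosolic ribosomal protein genes, 0 were called by the Wald test of DESeq2 and 3 had an unadjusted p under 0.05, with a median of 0.17. Glycolysis had 5 positive calls of 21, and 3 after recentring: Pfkp, a phosphofructokinase gene (1.52 ± 0.22), and the hexokinase gene Hk1 (0.81 ± 0.18) kept theirs, and Pkm (0.58 ± 0.18) and Ldha (0.51 ± 0.16) did not, in the authors' deposited table. Of 26 cholesterol synthesis genes, 2 were negative, Fdps (-0.72 ± 0.19) and Dhcr7 (-0.83 ± 0.29) in the authors' deposited table, and 4 after recentring. The CDK inhibitor gene Cdkn2c stood at 1.42 ± 0.27 in the authors' deposited table. Among the most abundant called genes were the nuclear RNA gene Malat1 (0.95 ± 0.19), the galectin gene Lgals1 (-0.71 ± 0.16) and the osteopontin gene Spp1 (0.54 ± 0.17) in the authors' deposited table; the call of Spp1 ended after recentring.

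Among other pathways, single members moved. At 64 or more 10.6% of all tested genes were positive. Near or under that share were 3 of 24 chromatin, 2 of 17 hypoxia, 2 of 20 NRF2, 1 of 28 respiratory chain and 0 of 9 lipoprotein genes. The shares were higher for 2 of 8 Notch genes, 2 of 11 BCL2 family genes and 4 of 17 amino acid transporter genes. These are few genes, and whether they exceed the share of all tested genes was not tested. Of 18 tested Notch genes, 2 were positive as listed and 1 after recentring. The 2 were the target gene Hes1 (0.96 ± 0.26) and the receptor gene Notch2 (0.55 ± 0.17) in the authors' deposited table. With the trend with level subtracted, the calls of Hes1 and Notch2 both ended. Of 21 genes of the hypoxia response, 2 were positive, Egln3 (1.03 ± 0.25), which marks the factor HIF for degradation, and P4ha1 (0.74 ± 0.24), a collagen prolyl hydroxylase, in the authors' deposited table; Egln3 kept its call after recentring. Among 22 NRF2 target and redox genes, 3 were positive and 2 negative, but 0 and 3 after recentring. The glutathione transferase gene Gstm1 (-1.20 ± 0.24) and Osgin1 (-0.76 ± 0.24) were lower in the authors' deposited table. Bok, a pro-apoptotic BCL2 family gene, stood at 1.33 ± 0.26 and Mcl1, which opposes apoptosis, at 0.58 ± 0.20 in the authors' deposited table, the 2 calls among 14 genes; after recentring that of Mcl1 ended and 2 genes of the family were called negative. Of 29 chromatin and DNA methylation enzymes, 3 were positive and 1 negative, but 0 and 2 after recentring; the maintenance methyltransferase gene Dnmt1 was listed at 0.54 ± 0.16 and Tet2 at 0.81 ± 0.27 by the authors' deposited table. Amino acid transporters had 4 positive and 3 negative calls among 26, and 2 and 4 after recentring; besides Slc1a2, Slc7a7 stood at 1.17 ± 0.31 in the authors' deposited table. Lrp2, the endocytic receptor megalin, was the 1 negative call among 15 apolipoprotein and lipoprotein receptor genes, at -2.45 ± 0.35 in the authors' deposited table; after recentring 2 were negative. Of 28 respiratory chain genes, Sdhb alone was called, with 0.72 ± 0.20 listed by the authors' deposited table, and none was after recentring.

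HOX genes, which set position along the body axis, had 4 positive and 2 negative calls among 25 tested, and 4 and 3 after recentring, all at levels of 26.4 or less. With the trend with level subtracted, 5 were positive and 0 negative. The authors' deposited table listed Hoxb6 at 5.63 ± 1.12, Hoxb3 at 2.74 ± 0.55 and Hoxb4 at 2.72 ± 0.75. Between them on the chromosome, Hoxb5 was at 1.58 ± 0.68 in the authors' deposited table and not called as listed, while Hoxb9, at the far side of Hoxb6, was at -3.28 ± 1.13 at a level of 5.17. At such levels a group may be at 0, so these folds are fitted values and no bounds. The 3 Y-linked genes, at levels of 5.46 to 13.2, were all negative, and 1 of them, Eif2s3y, with the trend with level subtracted; it stood at -5.79 ± 1.17 in the authors' deposited table.

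Fold changes also differed by chromosome. Of the 9769 genes at 64 or more, 9767 were placed on a chromosome by RefSeq for GRCm38.p6, and 9765 of these were tested. The median log2 fold change was 0.49 over 648 genes of chromosome 5, 0.45 over 550 of chromosome 9 and 0.39 over 600 of chromosome 4. On chromosome 17 it was -0.19 over 475 genes, on chromosome 13 -0.03 and on chromosome 2 -0.02. Positive calls made up 29.9% of the genes of chromosome 5 and 1.05% of those of chromosome 17, where 5.26% were negative, beside 10.6% and 2.11% overall. Chromosomes 5, 9 and 4 together held 18.4% of the genes and 39.6% of the positive calls, 408 of 1031. The median level was 427 on chromosome 5 and 348 on chromosome 17. The shift ran along whole chromosomes: each run of 51 neighbouring genes on chromosomes 3, 4, 5, 9 and 18 had a median above 0.22, and each run on chromosome 17 had one below 0. The highest run, on chromosome 5 from Zdhhc4 to Brca2, had a median of 0.78 with 30 positive and 0 negative calls. The lowest, on chromosome 17 from Rps10 to Zfp81, had a median of -0.32. Whether the lines differ in chromosome copy number was not tested. Of the called genes named here, 15 are on chromosome 5, 10 positive and 5 negative. Measured against the chromosome's median, the positive calls of Flt1 and Oasl1 and all 5 negative ones, Cldn4, Sema3a, Fgfbp1, Oas2 and Reln, were kept. The positive calls of Slit2, Btc, Ereg, Fzd1, Pdx1, Cxcl5, Mcm7 and Spp1 ended. Of the 10 on chromosome 17, only Tead3 lost its call; Igf2r, Tff1, Tff3, C3, Angptl4 and Epcam kept negative calls and H2-K1, Adgrf5 and Tnf positive ones. On the other chromosomes, Col27a1, Adam10, Adam17, Plxna2, Adgre5, Nt5e, Slc7a7 and Hes1 lost calls that had stayed after recentring.

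**Figure D4:**
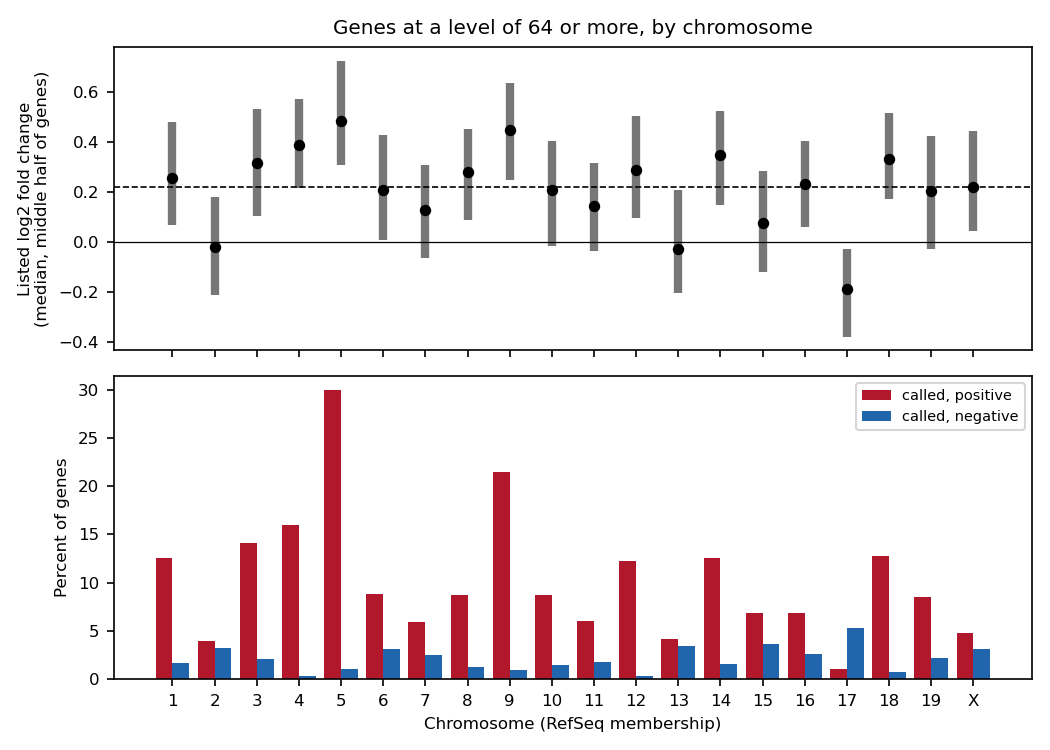
Upper panel: median (points) and interquartile range (bars) of the listed log2 fold change of genes at a level of 64 or more, by chromosome, with the overall median of 0.22 dashed. Lower panel: percent of those genes called positive (red) and negative (blue); chromosome 5 has the most positive calls, 29.9%, and chromosome 17 the fewest, 1.05%.

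For 47 genes at 64 or more the listed SE was over 2 times the running median SE of genes of like level; the lowest such ratio was 2.90 and the next gene below stood at 1.91. DESeq2 leaves the variance of a gene unshrunken where it lies far above the trend with level, so a wide SE marks a gene whose libraries differed within a group. Rhox5, a homeobox gene of the X chromosome, had the widest ratio, 6.68, with 2.64 ± 1.44 in the authors' deposited table. The matricellular genes Thbs1 (-0.85 ± 1.01, level 2328) and Tnc (-0.25 ± 1.04, level 735), the protocadherin gene Pcdh7 (-1.15 ± 1.10) and the scaffold gene Akap12 (-0.56 ± 0.99) were among them in the authors' deposited table, all not called. Uchl1, a ubiquitin hydrolase gene, was at 2.00 ± 1.14 and not called in the authors' deposited table. The 47 also held ribosomal, small nucleolar and other non-coding RNA genes, the most abundant at a level of 231631. None of these was called. Whether the libraries differed in RNA composition was not tested. Ndn, an imprinted gene, and Zfp518b have no p in the authors' deposited table. Of the 47, 4 were called: Adgrg7, Krt20, Lrrk2 and Ccbe1 (-2.44 ± 0.80). Which libraries differed cannot be read from the columns used.

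**Figure D5:**
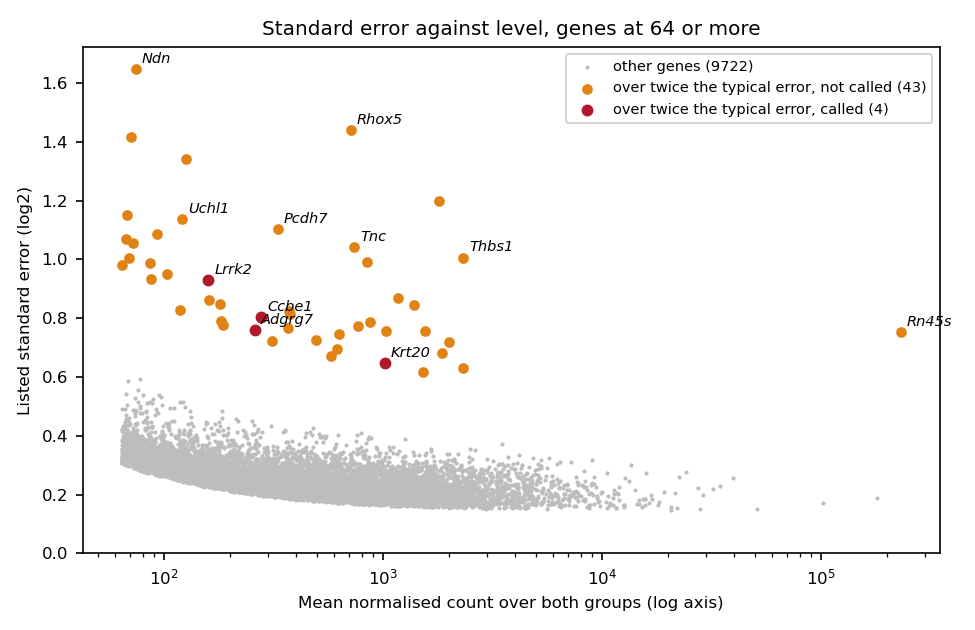
Listed SE (vertical axis, log2) against the mean normalised count (log horizontal axis) for the 9769 genes at a level of 64 or more. The 47 genes with an SE over 2 times that of genes of like level (orange, or red where called) lie above a gap that parts them from the other genes.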

How the data were processed

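RNA-seq libraries of 3 KPC and 3 KPC LM2 samples were made from total RNA with a TruSeq kit, per the labels' protocols. The submitters' processing notes name DESeq2 1.24, MultiQC 1.9, featureCounts 2.0.0 and STAR 2.7.6a, and the builds mm39 and hg19; settings, annotation, strandedness and model are not given in the sources used here. The authors deposited per gene a signal (the mean normalised count), a log2 fold change and its SE, a score (the Wald statistic) and p-values, raw and adjusted. The deposited score equals log2 fold change over SE within 9.17e-08 and the adjusted p a Benjamini-Hochberg adjustment within 5.55e-08. An adjusted p is given for 20050 genes, at a level of 3.08 or more. No value per library was used, so no model was refitted and no library depth is known.

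Genes were called at an adjusted p under 0.05. The members, the level of 64 and the 63 gene lists were chosen with earlier results of these data known, and 2 more lists and the chromosome steps were added after values were seen. Named genes are the 12 most positive and 12 most negative called genes at 64 or more, the 6 of smallest adjusted p per sign, the 6 most abundant, Nptx1 and the Amigo genes, each marker list's most abundant gene, and per list up to 3 called genes per sign and 2 uncalled ones; clone names were left out. Some genes that the rule selects are counted in their lists but not reported by name here. The 70 genes named outside this rule, among them all those under 64 except Amigo2, Amigo3 and Hoxb5, were chosen after their values were seen. Implied group means solve the level and the fold change for 2 groups of equal size. Alternatives were other thresholds and adjustments, recentring, a running median over 501 genes by level, a Wald test against 0.5, and the chromosome's own median. Steps were tested on simulated data. Tools were matplotlib 3.10.9, scipy 1.17.1, pandas 2.3.3 and numpy 2.4.6 in Python 3.11.15.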

Additional observations from a re-analysis of the deposited data

How the results depend on the processing

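No paired analysis was possible because the deposited columns hold no value per library; for the same reason no replicate could be left out. The count of 2079 called genes was 889 at an adjusted p under 0.01, 1303 with an absolute log2 fold change over 1, 250 in a Wald test against 0.5, 1133 with the trend with level subtracted and 1345 with adjustment over genes at 64 or more. At 64 or more, the count of 1237 was 649, 465, 167 and 765 under the first 4 of these, 654 relative to the chromosome median and 775 without chromosomes 5, 9 and 4. The share of positive calls, 55.7%, was 66.0% at 0.01, 36.9% with the fold threshold, 83.4% over genes at 64 or more, 23.5% after recentring, 51.6% with the trend subtracted, 62.4% against 0.5, 25.4% relative to the chromosome median and 47.2% without chromosomes 5, 9 and 4. Settings on chromosomes were chosen after seeing the data. Of 176 called genes named here, 155 kept their call after recentring, 138 with the trend subtracted, 143 of 175 relative to the chromosome and 76 against 0.5; none of the called genes changed sign in these settings. Uncalled genes near 0 did: after recentring Amigo2 was at -0.15, Col6a3 at -0.16, Krt8 at -0.20 and Airn at -0.14; with the trend subtracted Col6a3 was at -0.045, Krt8 at -0.18 and Airn at -0.13; relative to the chromosome Amigo2 was at -0.012, Col6a3 at -0.20, Lama3 at -0.060, Krt8 at -0.059, Cdh1 at -0.0083 and Vegfa at 0.10. The cause of these shifts was not tested.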
